A study of Mus musculus with 6 samples.

Results

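The genes described here are Mmrn1 and 6 genes of lymphatic vessels, namely Lyve1, Prox1, Flt4, Vegfc, Pdpn and Reln, in mouse tumours with and without an antibody against PD-1. They were chosen by symbol with the log2 signals of the same anti-PD-1 and control tumours already known, and each matched 1 transcript cluster, so that 7 of 21154 genes make up the group. Their values in that comparison are therefore a description, and no p-value of theirs serves as support. The question put to them was whether Mmrn1 moves with the lymphatic markers.

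KLN205 is a mouse squamous cell carcinoma line, and its cells were injected under the skin in a basement membrane gel. The 3 tumours labelled as given anti-PD-1 (replicates 1, 2 and 3) were set against 3 labelled as without it (control replicates 2, 3 and 4). The protocol gives antibody into the peritoneum at 250 µg every 3 days and names an IgG2a isotype antibody as the alternative to anti-PD-1, while the control labels name no antibody. The labels give no strain, sex or age, and the series text speaks of surviving cells where the sample labels name tumour tissue. The samples were read as whole tumour pieces with their host cells, in which fewer cells of a type and less RNA per cell cannot be told apart. Nothing in the labels says that each tumour came from its own animal, so that every p-value measures only the spread between these samples.

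Lymphatic vessels are lined by endothelial cells that drain fluid and carry immune cells to lymph nodes. Their identity is set by the transcription factor Prox1, and their growth is driven by the ligand Vegfc, which acts through the receptor encoded by Flt4 (VEGFR-3). Lyve1 is a hyaluronan receptor and Pdpn a mucin-like membrane protein, and both are used to stain lymphatic vessels. Reln encodes the secreted glycoprotein reelin. Mmrn1 encodes multimerin 1, a large secreted protein of the EMILIN family that is held in platelets and endothelial cells and is also a transcript of lymphatic endothelium. Most of these genes are not limited to that cell type: Lyve1 is also found on tissue macrophages, and Pdpn on fibroblasts and squamous tumour cells.

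Each tumour was read on 1 Clariom S Mouse array, and the values are log2 signals as deposited, so that a difference of 1 is a 2-fold change. Array medians lay between 7.04 and 7.13, and precision is limited by having 3 arrays in each group. Control replicate 3 stood apart: its Pearson correlation with the other arrays across clusters was 0.908 to 0.936, against 0.973 to 0.987 among the other 5. It held the highest signal of all 10 adipocyte genes examined and the lowest of all 10 squamous epithelial genes.

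Mmrn1 was higher in every anti-PD-1 tumour than in any control tumour, and it was the only one of the 7 genes without overlap between the groups. Its log2 signal was 6.93, 7.64 and 6.76 in anti-PD-1 replicates 1, 2 and 3, and 4.18, 4.74 and 5.04 in control replicates 2, 3 and 4. Anti-PD-1 replicate 2 was the highest array and control replicate 2 the lowest. The means were 7.11 ± 0.47 in anti-PD-1 and 4.65 ± 0.44 in control tumours (SD, n = 3 each), a difference of 2.46 ± 0.33 (SE of the limma fit), or 5.49-fold. It was 2.50 without control replicate 3, and between 2.19 and 2.65 with any 1 array left out. The authors' deposited table calls Mmrn1 expressed in both groups. For scale, clusters that it calls expressed in neither group had a median log2 signal of 3.84 and a 90th percentile of 4.67, and both control replicate 2 and the control mean of 4.65 lay below that percentile, so that the fold is set against a group near the level of undetected clusters.

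Among all genes the groups did not overlap in 16.6%, made up of 8.82% with anti-PD-1 above control and 7.76% below it. Mmrn1 ranked 117th of 21154 genes by size of the upward difference, and 57 genes, itself included, were at least as much higher without overlap. Its p, adjusted across every gene by the Benjamini-Hochberg method in limma, was 0.377, and 10 genes, itself included, had an unadjusted p as small as its own. None of the 7 genes passed the adjusted threshold of 0.05, which 1 gene passed on the whole array (0.00473%). At an unadjusted p under 0.05 with at least a 2-fold difference, Mmrn1 alone of the 7 qualified, as did 910 genes on the array (4.3%). The authors' deposited table gives Mmrn1 a signed fold of -4.56 for control over anti-PD-1, with an FDR of 0.3084. That fold rests on the authors' own averages, 6.88 for anti-PD-1 and 4.69 for control tumours, whose rule the table does not state. By such averages Vegfc (9.04 against 8.87), Pdpn (11.3 against 10.83) and Reln (6.98 against 6.62) were higher in anti-PD-1 tumours. The differences fitted here for these 3 genes, given below, had the opposite sign. Prox1 averaged 6.21 against 6.13, Flt4 6.11 against 6.15 and Lyve1 8.47 against 9.93.

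**Figure D1:**
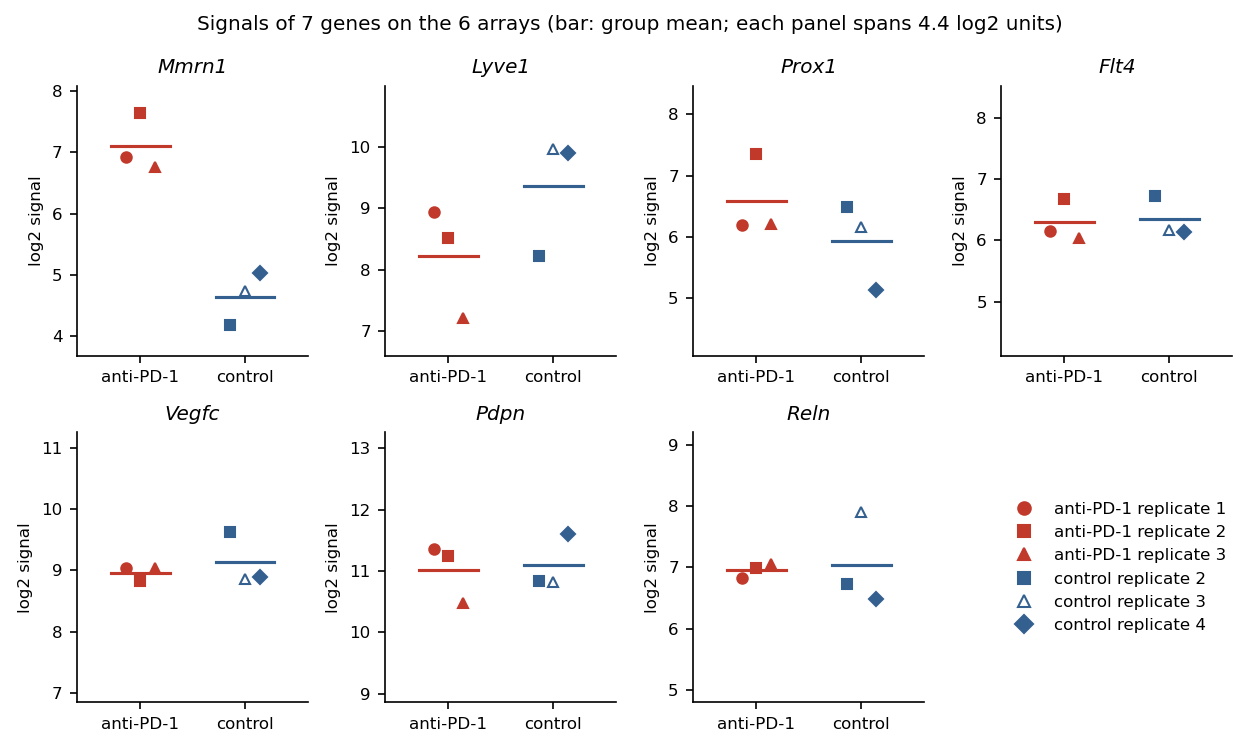
Log2 signal (vertical axes) of the 7 genes in the 3 anti-PD-1 tumours (left, red) and the 3 control tumours (right, blue), with 1 point per array and a bar at each group mean. The 3 Mmrn1 points of anti-PD-1 tumours, 6.76 to 7.64, lie above all control points, 4.18 to 5.04, and the groups overlap in the other 6 panels.

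Mmrn1 lies on chromosome 6 (mm10, 60924976 to 60989378, plus strand). The other 4 genes of the EMILIN family, which share a cysteine-rich EMI domain with Mmrn1, all overlapped between the groups. Mmrn2, the multimerin of blood vessel endothelium, read 10.07, 10.53 and 9.67 in anti-PD-1 tumours and 10.22, 8.60 and 7.82 in control tumours. Control replicate 2 lay within the anti-PD-1 range, and the difference was 1.21 ± 0.60 (SE). The differences of Emilin1, Emilin2 and Emilin3 lay between -0.08 and 0.10, and Emilin3 was called expressed in neither group.

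The windows around the RefSeq starts of these genes differ in base composition. Each window holds 250 bases before the start and 50 after it, on GRCm38.p6, the assembly behind mm10, and 6 of the 7 genes matched (Lyve1 is the other). Mmrn1 is shown because it alone differed without overlap, and Flt4 and Vegfc because they are the receptor and ligand that did not. CG dinucleotides, the sites of DNA methylation, are in capitals.
Mmrn1, chr6:60944067-60944366, plus strand: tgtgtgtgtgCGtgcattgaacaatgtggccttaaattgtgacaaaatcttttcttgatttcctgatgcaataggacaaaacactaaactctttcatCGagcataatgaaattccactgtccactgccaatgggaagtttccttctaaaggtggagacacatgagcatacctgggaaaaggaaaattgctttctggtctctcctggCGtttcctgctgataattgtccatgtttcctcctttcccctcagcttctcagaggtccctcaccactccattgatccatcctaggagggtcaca
Flt4, chr11:49609429-49609728, plus strand: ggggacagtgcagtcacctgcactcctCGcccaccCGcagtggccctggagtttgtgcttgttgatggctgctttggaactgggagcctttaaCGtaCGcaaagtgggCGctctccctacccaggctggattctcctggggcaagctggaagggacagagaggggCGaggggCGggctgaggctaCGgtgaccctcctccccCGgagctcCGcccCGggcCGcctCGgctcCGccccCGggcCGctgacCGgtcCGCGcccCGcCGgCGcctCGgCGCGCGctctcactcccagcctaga
Vegfc, chr8:54077282-54077581, plus strand: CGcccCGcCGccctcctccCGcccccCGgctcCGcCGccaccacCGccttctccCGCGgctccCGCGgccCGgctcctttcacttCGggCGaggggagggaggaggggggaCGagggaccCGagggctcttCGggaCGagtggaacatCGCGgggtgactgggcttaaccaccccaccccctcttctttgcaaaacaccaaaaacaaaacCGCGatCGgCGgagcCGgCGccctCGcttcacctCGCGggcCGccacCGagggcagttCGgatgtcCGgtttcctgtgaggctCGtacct
The Mmrn1 window holds 3 CG dinucleotides and 44.3% G or C, against 26 and 70.3% for Flt4 and 35 and 70.3% for Vegfc. Reln had 47, the windows of the 2 annotated Prox1 starts 14 and 25, and Pdpn 7, and the median over 32851 windows was 7. Fewer CG than in the Mmrn1 window were found in 23.3% of all windows. The array's Mmrn1 cluster begins upstream of this RefSeq start.

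Short motifs of factor families known in endothelial cells were searched on both strands. GGAAAA, the core bound by NFAT factors, occurs 2 times in the Mmrn1 window and in 23.4% of all windows, and each match also holds GGAA, the ETS core, found in 96.0% of windows. The letters of 4 other motifs are not in this window. Of these, the motif of forkhead factors, written GTAAACA, is found in 3.65% of all windows and that of SOX factors, written ACAAAG, in 18.7%. The nuclear receptor motif, written AGGTCA, is found in 16.3%, and the motif AGATAA of the haematopoietic and endothelial zinc finger factors in 11.2%.

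Vegfc, the main growth ligand of lymphatic endothelium, read 9.04, 8.82 and 9.03 in anti-PD-1 tumours and 9.63, 8.86 and 8.89 in control tumours. Only control replicate 2 stood off, and the other 5 arrays lay between 8.82 and 9.04. The means were 8.96 ± 0.12 and 9.13 ± 0.44 (SD, n = 3 each), a difference of -0.16 ± 0.27 (SE) whose sign turned without control replicate 2, at 0.09, and which was -0.30 without control replicate 3. Vegfd, the other ligand of this receptor, listed on the array as Figf, differed by -0.48 ± 0.28 with overlap, and by -0.29 without control replicate 3. In the VEGF family list of ligands and receptors 3 of 8 genes were higher and 5 lower, with a median difference of -0.22. The median over all genes was 0.02, and 52.0% of genes were higher.

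Flt4, the receptor for Vegfc, was nearly level between the groups. It read 6.15, 6.68 and 6.04 in anti-PD-1 tumours and 6.72, 6.17 and 6.13 in control tumours. In each group the array numbered 2 lay above the other pair. The difference was -0.05 ± 0.28 (SE) and ran from -0.24 to 0.14 with 1 array left out. Kdr (VEGFR-2), the main VEGF receptor of blood vessels, differed by -1.77 ± 0.73 without overlap, and by -0.98 without control replicate 3.

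Prox1, the master transcription factor of lymphatic endothelium, read 6.20, 7.35 and 6.22 in anti-PD-1 tumours and 6.49, 6.17 and 5.14 in control tumours. Anti-PD-1 replicate 2 was the highest array and control replicate 4 the lowest, while the other 4 lay between 6.17 and 6.49. The means were 6.59 ± 0.66 and 5.93 ± 0.71 (SD, n = 3 each), and the difference was 0.66 ± 0.46 (SE). It was 0.28 without anti-PD-1 replicate 2 and 0.26 without control replicate 4.

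Lyve1 was lower on average in anti-PD-1 tumours, opposite in sign to Mmrn1, and its groups overlapped. It read 8.94, 8.51 and 7.21 in anti-PD-1 tumours and 8.22, 9.97 and 9.90 in control tumours, so that control replicate 2 fell among the anti-PD-1 values. The difference was -1.14 ± 0.62 (SE), from -1.72 without control replicate 2 to -0.64 without anti-PD-1 replicate 3. Across the 6 arrays the Pearson r of Lyve1 with 10 resident macrophage genes ran from -0.17 to 0.97. It was highest, at 0.97 each, for Folr2, a folate receptor of tissue macrophages, and F13a1, the macrophage transglutaminase of coagulation. It was 0.57 for the phagocytic receptor gene Timd4, -0.15 for the complement gene C1qa and -0.17 for the lysosomal gene Cd68, and without control replicate 3 these were 0.34, 0.55 and 0.85. With the mean signal of these 10 genes r was 0.90, with that of 10 fibroblast genes 0.98 and with that of 12 blood vessel genes 0.85. With that of the 30 further lymphatic pathway genes described below it was 0.93. These are descriptions over 6 tumours that share their groups and the array that stood apart. Without that array the values for these means, in the same order, were 0.94, 0.98, 0.91 and 0.91.

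Of the resident macrophage genes 9 of 10 were lower in anti-PD-1 tumours (median difference -0.92, and -1.02 without control replicate 3). Their mean log2 signal was 9.62 to 10.73 in anti-PD-1 and 10.71 to 11.60 in control tumours. F13a1 differed by -1.76 ± 0.64 (SE), Adgre1 (F4/80) by -1.20 ± 0.41 and Csf1r, the receptor for macrophage growth factor, by -1.10 ± 0.47. No gene of the list passed the adjusted threshold. Adjusted p by limma was 0.506 to 0.517 for F13a1, Adgre1 and Csf1r, and reached 0.953 in the list, for C1qa. The part of resident macrophages in the Lyve1 signal was not tested.

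Pdpn, which lymphatic vessels share with fibroblasts and squamous cells, read 11.35, 11.24 and 10.48 in anti-PD-1 tumours and 10.84, 10.82 and 11.61 in control tumours. The groups covered nearly the same range, and the difference was -0.07 ± 0.34 (SE), and -0.20 without control replicate 3. Its sign turned without anti-PD-1 replicate 3 (0.20) or control replicate 4 (0.19). Fibroblast genes were lower in 9 of 10 cases (median -1.10) and squamous genes higher in all 10 (median 3.77, and 2.15 without control replicate 3). Their part in the Pdpn signal was not tested.

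Reln read 6.82, 6.99 and 7.05 in anti-PD-1 tumours and 6.73, 7.91 and 6.49 in control tumours. Control replicate 3 alone decided its direction: the difference was -0.09 ± 0.38 (SE) with this array and 0.34 without it, where all 3 anti-PD-1 values exceeded both remaining controls. Of its receptors, Vldlr differed by -1.76 ± 0.73 and Lrp8 by 1.84 ± 0.98, and of these only Vldlr had groups without overlap. Without control replicate 3 they differed by -0.86 and 0.79. Dab1, the adaptor that carries the signal inside the cell, read 6.24, 7.92 and 5.89 in anti-PD-1 and 5.33, 4.29 and 5.68 in control tumours, a difference of 1.58 ± 0.60. The kinase gene Fyn differed by -0.89 ± 0.30 without overlap. In all, 5 of 8 reelin pathway genes were higher and 3 lower (median 0.15, and 0.01 without control replicate 3), and none passed the adjusted threshold.

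Likeness between Mmrn1 and the 6 lymphatic genes ran from weakly positive to negative. Its Pearson r over the 6 arrays was 0.50 with Prox1, 0.10 with Pdpn, -0.07 with Flt4, -0.09 with Reln, -0.41 with Lyve1 and -0.51 with Vegfc. Spearman's rho was 0.31, 0.26, -0.26, 0.14, -0.14 and -0.43 in the same order. The 6 lymphatic genes did not move as a set among themselves either. Pearson r between pairs of them ran from -0.51 (Pdpn with Reln) to 0.69 (Prox1 with Flt4), and was -0.46 for Lyve1 with Prox1. These values are descriptions, with no test, since the genes were chosen with the comparison known. Of 18044 genes called expressed in at least 1 group, 20.9% had a higher r with Mmrn1 than Prox1, the nearest of the 6, and 81.9% a higher r than Vegfc.

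Single arrays moved these values widely. With 1 array left out r ran from 0.07 (without anti-PD-1 replicate 2) to 0.74 for Prox1, from -0.68 to 0.53 for Flt4, from -0.72 to 0.25 for Vegfc and from -0.32 to 0.73 for Reln. It ran from -0.73 to -0.25 for Lyve1 and from -0.06 to 0.44 for Pdpn. Without both anti-PD-1 replicate 2 and control replicate 2, the arrays farthest from the median of Mmrn1, r was 0.51 for Prox1, -0.23 for Pdpn, -0.53 for Flt4, -0.36 for Reln, -0.80 for Lyve1 and 1.00 for Vegfc over the remaining 4. The value of 0.73 for Reln was that without control replicate 3. After each group's mean was subtracted, r was 0.69 for Lyve1, 0.65 for Pdpn, -0.80 for Vegfc and between 0.02 and 0.07 for Prox1, Flt4 and Reln. For Lyve1 the r inside the groups was thus positive while its group difference was negative.

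**Figure D2:**
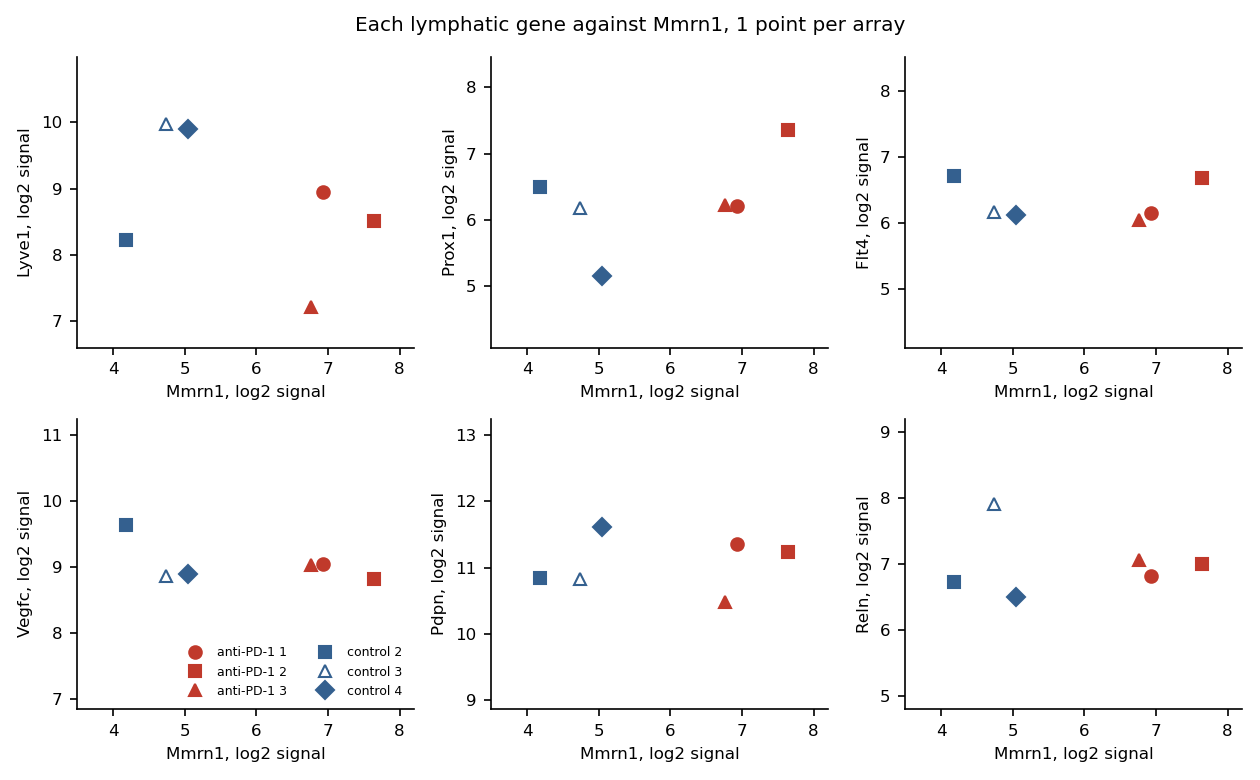
Log2 signal of each of the 6 lymphatic genes (vertical axes) against that of Mmrn1 (horizontal axes), with 1 point per array, anti-PD-1 in red and control in blue. The red and blue points are apart along the Mmrn1 axis, at 6.76 or more against 5.04 or less, and overlap along each vertical axis.

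The genes most like Mmrn1 over the 6 arrays were ranked among clusters with 1 gene name. Of 18044 genes, 45 had an r of at least 0.95, and the 8 with the highest r, all between 0.974 and 0.985, were Bmpr1a, Zfand6, Lce1k, Cysrt1, Cyp2j8, Smad4, Tktl1 and Serpinb3b. Bmpr1a encodes a receptor for bone morphogenetic proteins and read 12.36, 12.52 and 12.31 in anti-PD-1 tumours and 11.06, 11.42 and 11.69 in control tumours. Smad4, the shared transcription factor of the TGF-beta and bone morphogenetic protein pathways, read 13.24, 13.28 and 13.25 against 12.36, 12.42 and 12.55 in controls. Lce1k, a late cornified envelope gene of the epidermis, and Serpinb3b, a protease inhibitor of squamous cells, were higher by 1.58 and 2.09. Lce1k was called not expressed in control tumours, where it read 3.19, 3.20 and 3.89. All 8 had groups without overlap, which a high r with Mmrn1 favours, and their adjusted p lay between 0.506 and 0.539. After each group's mean was subtracted, their r with Mmrn1 was 0.73 (Cyp2j8) to 0.95 (Serpinb3b), which choosing genes by r also favours.

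A list of 30 further lymphatic pathway genes was read beside the 7. Of these, 13 were higher and 17 lower under anti-PD-1. The median difference was -0.19, and -0.10 without control replicate 3. At an unadjusted p under 0.05 with at least a 2-fold difference, 2 were higher and 4 lower, where 2.15% of all genes were higher and 2.16% lower by this rule. None passed the adjusted threshold. The groups did not overlap in 3 genes upward (Adm, the cluster of Ccl21a and Efnb2, which was named after its values were seen) and in 6 downward. Of all genes, 8.82% were without overlap upward and 7.76% downward.

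The lower genes named here are the 4 with the smallest p. Tek, the angiopoietin receptor TIE2, read 7.04, 6.41 and 5.85 in anti-PD-1 tumours and 7.59, 10.54 and 8.77 in control tumours, a difference of -2.53 ± 0.73 (SE). Its partner Tie1 differed by -1.04 ± 0.38, Sox18, which switches on Prox1 in the embryo, by -1.33 ± 0.48, and Ramp2, part of the adrenomedullin receptor, by -1.67 ± 0.66. All 4 peaked in control replicate 3, and without it the differences were -1.75 for Tek, -0.65 for Tie1, -0.76 for Sox18 and -0.90 for Ramp2. Adamts3, a protease that processes VEGF-C, and Fat4, an atypical cadherin, both named after their values were seen, were also lower without overlap, by -1.67 ± 0.86 and -1.32 ± 0.60, and both by -0.59 without control replicate 3. Adamts3 was called expressed in control tumours only. Its anti-PD-1 values, 4.07 to 4.33, and control replicate 4, at 4.39, lay below 4.67, the 90th percentile of clusters called expressed in neither group. Adm, which encodes adrenomedullin, the ligand of that receptor, read 11.33, 10.75 and 10.77 in anti-PD-1 and 10.46, 9.20 and 9.58 in control tumours, a difference of 1.20 ± 0.37. Adjusted p for Tek, Tie1, Sox18, Ramp2 and Adm lay between 0.506 and 0.508.

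Ccl21a, 1 of the genes for the chemokine CCL21, which draws in cells that carry the receptor CCR7, had the largest difference of the list. Its brightest cluster (chromosome 4, 42772860 to 42773993, minus strand) also carries the name Gm1987 and was tested among all 22206 clusters. It read 11.76, 11.47 and 11.34 in anti-PD-1 tumours and 8.77, 5.74 and 8.48 in control tumours, with control replicate 3 the lowest array. The difference was 3.86 ± 0.77 (SE), with an adjusted p of 0.498 by limma, where 1 cluster (0.0045%) passed the adjusted threshold. Without control replicate 3 it was 2.90, with an adjusted p of 0.0292, where 13 clusters (0.0585%) passed. With any 1 array left out the difference lay between 2.90 and 4.41.

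The Ccl21 genes are near-identical copies, so that the clusters share sequence and are not independent. The array holds 5 clusters that name Ccl21a, Ccl21b or Ccl21c, of which those beyond the brightest Ccl21a cluster were added after their values were seen. All 5 were higher in anti-PD-1 tumours without overlap, as were 8.82% of all genes. Their differences were 2.27 to 4.45, and 2.12 to 3.34 without control replicate 3. None passed the adjusted threshold over all arrays (0.208 to 0.498), and 4 did without control replicate 3. With each of the other arrays left out in turn, 0 passed, the smallest adjusted p by limma being 0.142. Their Pearson r with Mmrn1 was 0.83 to 0.96 over the 6 arrays, above that of the 6 lymphatic genes, and -0.18 to 0.53 after each group's mean was subtracted, again as a description.

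**Figure D3:**
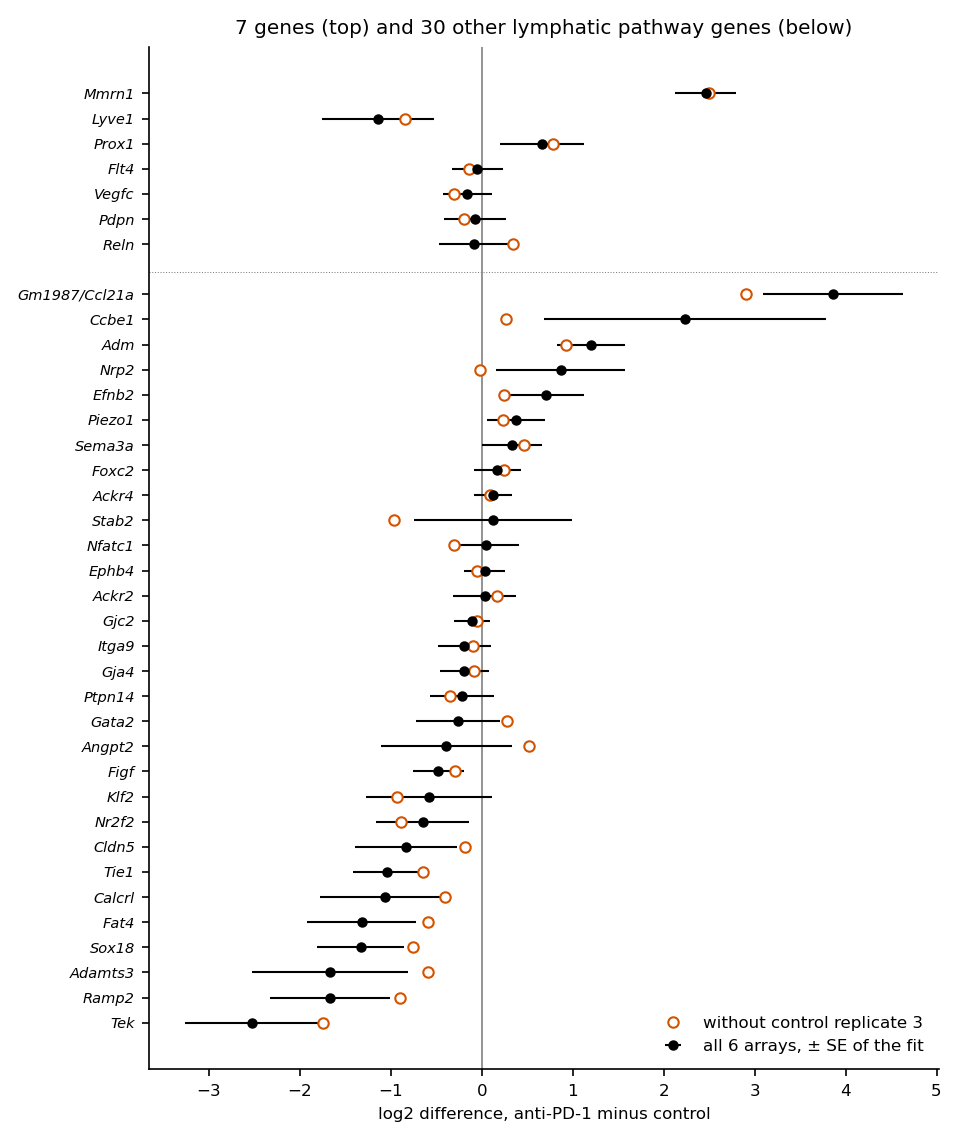
Log2 difference, anti-PD-1 minus control (horizontal axis), for the 7 genes (above the dotted line) and 30 further lymphatic pathway genes (below it), from all 6 arrays (black, bars show the SE of the fit) and without control replicate 3 (open orange). Mmrn1, at 2.46, and the Ccl21a cluster, at 3.86, are far to the right with and without that array, and Tek, at -2.53, is the lowest.

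Markers of cell types that could carry these transcripts differed between the groups in both directions. Blood vessel genes were lower in 11 of 12 cases in anti-PD-1 tumours (median -0.97, and -0.76 without control replicate 3), with a mean log2 signal of 8.38 to 9.00 in anti-PD-1 and 9.15 to 10.57 in control tumours. Cdh5, the endothelial cadherin, differed by -1.51 ± 0.47 (SE), Vwf by -1.26 ± 0.38 (-0.84 without control replicate 3) and Pecam1 by -0.99 ± 0.35, each without overlap. Whether this list separates blood from lymphatic endothelium was not tested. By group, Mmrn1 was thus higher where the blood vessel genes were lower. Their mean had an r of -0.61 with Mmrn1 over the 6 arrays and 0.41 after each group's mean was subtracted. This was not particular to blood vessel genes. The same values were -0.53 and 0.31 for the lymphatic pathway mean, -0.60 and 0.55 for resident macrophage genes, and -0.53 and 0.77 for fibroblast genes. Squamous genes, given below, went the other way over the 6 arrays. Among 12 genes of megakaryocytes and platelets, which store multimerin 1, 4 were higher and 8 lower, with a median of -0.05. Their mean signal was 5.68 to 5.86 in anti-PD-1 and 5.89 to 6.20 in control tumours, and the platelet receptor genes Gp1ba, Gp5 and Gp6 were called expressed in neither group. Pf4, a platelet chemokine, differed by -0.18 ± 0.29, and by -0.09 without control replicate 3. By smallest p this list was led by Selp, at -0.97 ± 0.40 without overlap, and Ppbp, at -1.28 ± 0.56 with overlap. Next came the cluster of Gp1bb, which was higher by 0.33 ± 0.20 without overlap. Without control replicate 3 these differences were -0.68, -1.03 and 0.34.

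Squamous epithelial genes were higher in anti-PD-1 tumours in all 10 cases, with a mean log2 signal of 14.37 to 15.82, against 8.58 to 13.44 in control tumours. Their mean had an r of 0.71 with Mmrn1 over the 6 arrays and -0.06 after each group's mean was subtracted. Of the 10 genes, Dsc3, a desmosomal cadherin, had the highest r with Mmrn1, at 0.90. The others ran from 0.50 for Itgb4 to 0.74 for Trp63. Adipocyte genes were lower in all 10 cases (median -3.22, and -1.31 without control replicate 3), and their mean had an r of -0.58 with Mmrn1. The part of the cells' make-up in the differences of Mmrn1 and Ccl21a was not tested.

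**Figure D4:**
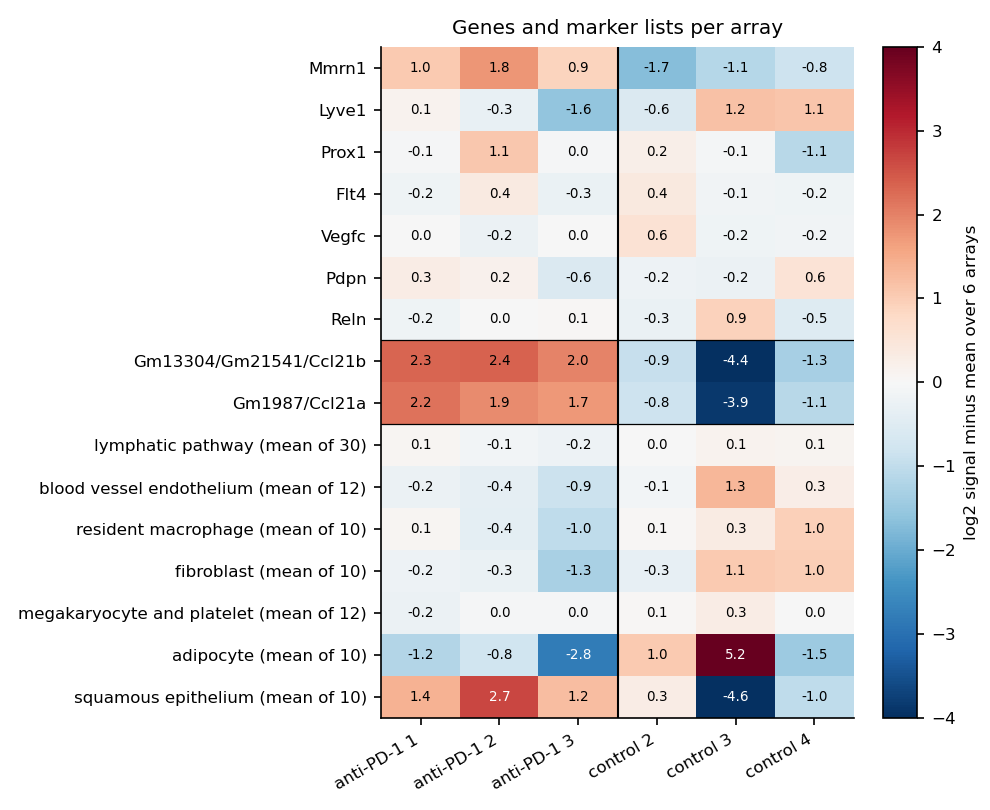
Log2 signal minus the mean over the 6 arrays (colour, capped at 4 in either direction, and printed value) for the 7 genes, the chromosome 4 Ccl21a and Ccl21b clusters, and the mean of each marker list, with anti-PD-1 arrays left and control arrays right of the line. Of the 7 genes, Mmrn1 alone is above its mean in all anti-PD-1 arrays and below it in all control arrays, as are the Ccl21 clusters.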

How the data were processed

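Total RNA of 6 tumours was labelled with biotin and hybridised to Clariom S Mouse arrays, per the labels' protocols. The deposited log2 signals were made by the authors with the SST-RMA gene-level method, on mm10 annotation, per the file headers. Transcriptome Analysis Console is the software named, without a version, per the submitters' processing notes. The authors' deposited table also holds log2 averages, standard deviations and a signed fold (score columns), expressed calls, and a p-value with FDR, per the file headers. A second deposited table held the same log2 values (0 values differed).

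The gene fit omitted 836 of 22206 clusters that carry more than 1 name and 3 that carry none, and the brightest cluster of each gene was kept (21154 genes). Clusters with several names were read from a fit of every cluster. Groups follow the sample titles. Differences were fitted in limma 3.58.1 (R 4.3.3) by lmFit and eBayes and tested on both sides. Adjustment by Benjamini-Hochberg covered every gene, or every cluster, of a fit, and the script was tested on simulated data. With 3 tumours a side, exact permutation could reach no p under 0.1 and was not run. Members and gene lists were chosen with earlier results of these data known. The text names the 7 members, up to 6 genes of each list by smallest p, the 8 genes most like Mmrn1, and genes marked as named after their values were seen. Beside them Gp1ba, Gp5, Gp6, Emilin3, Folr2, Timd4, C1qa, Cd68, Itgb4 and Pf4 were named for their calls, their r or their role. Promoter windows are RefSeq's. Alternatives were another scaling, a filter on expressed calls, all clusters, array weights, a variance trend, the replicate number as a block, the second deposited table, and each array left out. A result for 1 other gene is not reported here.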

Additional observations from a re-analysis of the deposited data

How the results depend on the processing

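The difference of Mmrn1 ran from 2.19 to 2.74 in 14 alternatives, with an adjusted p of 0.149 to 0.915 by limma. It kept its sign and stayed short of the adjusted threshold in all of them. That sign could not turn with 1 array left out, since the groups did not overlap. The expressed filter, all clusters, the variance trend and the second deposited table refitted the same signals, at 2.46 each. Lyve1 (-1.72 to -0.64) and Prox1 (0.26 to 0.94) likewise kept their signs. The sign of Reln turned with array weights (0.17), and with 1 array left out the differences ran from -0.24 to 0.14 for Flt4, -0.30 to 0.09 for Vegfc, -0.23 to 0.20 for Pdpn and -0.37 to 0.34 for Reln. The count of genes past the adjusted threshold was 1 with all arrays, 0 after quantile normalization and 0 after median centring, and 0 to 4 with 1 array left out. The count at an unadjusted p under 0.05 and 2-fold was 910, and 567 to 1928 with 1 array left out. Of the lymphatic pathway genes with 1 name, 5 met that rule with all arrays, 3 with array weights and 1 to 7 with 1 array left out, and their median difference was -0.19, and -0.25 to -0.04 with 1 array left out. The cause of these shifts was not tested.

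The labels number 2 of the arrays in each group alike. Same-numbered arrays deviated from their group means with correlations of -0.197 and -0.195, so that the numbers were not taken to pair the tumours. With the replicate block 0 genes passed the adjusted threshold, 3 lymphatic pathway genes met the unadjusted rule, Mmrn1 differed by 2.74 and Pdpn by 0.03.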

Other observations

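Partners of Ccl21 were lower where Ccl21 was higher. These genes were chosen after their values were seen. Ccr7, the receptor for CCL21 on dendritic and T cells, read 7.65, 7.95 and 7.83 in anti-PD-1 tumours and 8.62, 8.53 and 9.41 in control tumours, a difference of -1.04 ± 0.29 (SE) without overlap. Ccl19, the other ligand of this receptor, has near-identical copies and was read by 6 clusters. All 6 were lower in anti-PD-1 tumours, by between -1.05 and -0.40, and 2 of them had groups without overlap. Of all genes, 7.76% were lower without overlap. None of these clusters passed the adjusted threshold by limma.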
